A study of Rattus norvegicus with 23 samples.

Results

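The area postrema of dehydrated rats was compared directly with that of fasted rats, on the 9 of the 23 arrays of the series whose titles name either state. The dehydrated group had 4 arrays from male Sprague Dawley rats dehydrated for 72 h. The fasted group had 5 arrays from male Sprague Dawley rats after 48 h of fasting, which the treatment label calls food restriction. All animals were 10 to 12 weeks old, with no transgene or further agent in the labels, and each array held RNA pooled from 5 animals. The labels do not give what the dehydrated rats ate, what the fasted rats drank or how water was withheld. The states also differ in length, so that state and duration cannot be told apart. The 4 arrays of untreated Sprague Dawley controls of the same sex and age took no part in the comparison, and their signals are given beside it as a reference level. Nothing in the labels says how pools were assigned, so p-values measure the spread between these pools only and do not see how animals differed inside a pool.

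The area postrema is a small organ at the floor of the hindbrain whose capillaries are leaky, so that its neurons and glia are exposed to blood-borne ions, hormones and nutrients. It carries receptors for amylin, glucagon-like peptide 1, angiotensin and calcium, and sends this information to the neighbouring nucleus of the solitary tract and to other autonomic centres. Water loss raises plasma sodium, osmolality, vasopressin and angiotensin. Food loss lowers insulin, leptin and glucose use and turns tissues towards fatty acids and ketones, in part through FOXO transcription factors. A direct contrast of both states asks which transcripts separate dehydrated from fasted rats in this organ, whatever the 2 states share.

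Values were the deposited signals, a linear intensity scale on which each array has the same trimmed mean, and differences are dehydrated minus fasted on log2(signal + 16). Median signals of the arrays ran from 41.3 to 43.6 in the fasted group and from 39.8 to 42.9 in the dehydrated group, and each array correlated with the others of its group at a mean of 0.98. Tissue markers were present in both groups, with Calcr, the core of the amylin receptor, at 99.7 to 125 in fasted and 104 to 140 in dehydrated pools. The enzyme genes Th and Dbh, which mark catecholamine neurons, lay at 222 to 352 over the 9 arrays, while Glp1r was near the filter at 23.2 to 49.3. Some arrays stood apart before any comparison. The Gapdh control probes at the 3' end, set against those at the 5' end as a measure of RNA integrity and amplification, gave a log2 ratio of 0.18 to 0.26 in the fasted pools and 0.40, 0.68, 0.34 and 0.21 in the dehydrated pools. The difference of 0.19 had an exact permutation p of 0.0635 (two-sided, smallest possible 0.0159). Markers of the choroid plexus, the neighbouring secretory epithelium, were high on dehydrated arrays 1 to 3 and on fasted array 4.

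Few probe sets passed the threshold between the dehydrated and the fasted area postrema. Of 18625 probe sets tested, 8 passed the threshold of an adjusted p below 0.05 (0.043%), 4 higher in dehydrated (0.0215%) and 4 lower (0.0215%). Their arrays did not overlap between the groups, which held for 600 of all tested probe sets (3.22%, with 1.32% higher and 1.91% lower in dehydrated). Bdnf, Nmu, Sh3bgrl1 and an unnamed probe set were higher in the dehydrated pools, and Klhl24, Pbxip1 and 2 unnamed probe sets were lower. In bulk pools of this kind, more cells of a type and more RNA per cell cannot be told apart. The median difference of all tested probe sets was -0.0088 and 47.3% were above 0. Differences of at least 1.5-fold were found upwards at 26 of the tested probe sets and downwards at 18, and differences of at least 2-fold at 6 of all 31042 probe sets. An unadjusted p below 0.05 was reached at 1895 probe sets (10.2%), 841 higher (4.52%) and 1054 lower (5.66%). That share is above the 0.05 expected without any difference, so the count of calls can miss probe sets that differ. The standard error had a median of 0.11, and the smallest difference that passed was 0.44, so no difference under 1.36-fold was called with this number of arrays.

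**Figure D1:**
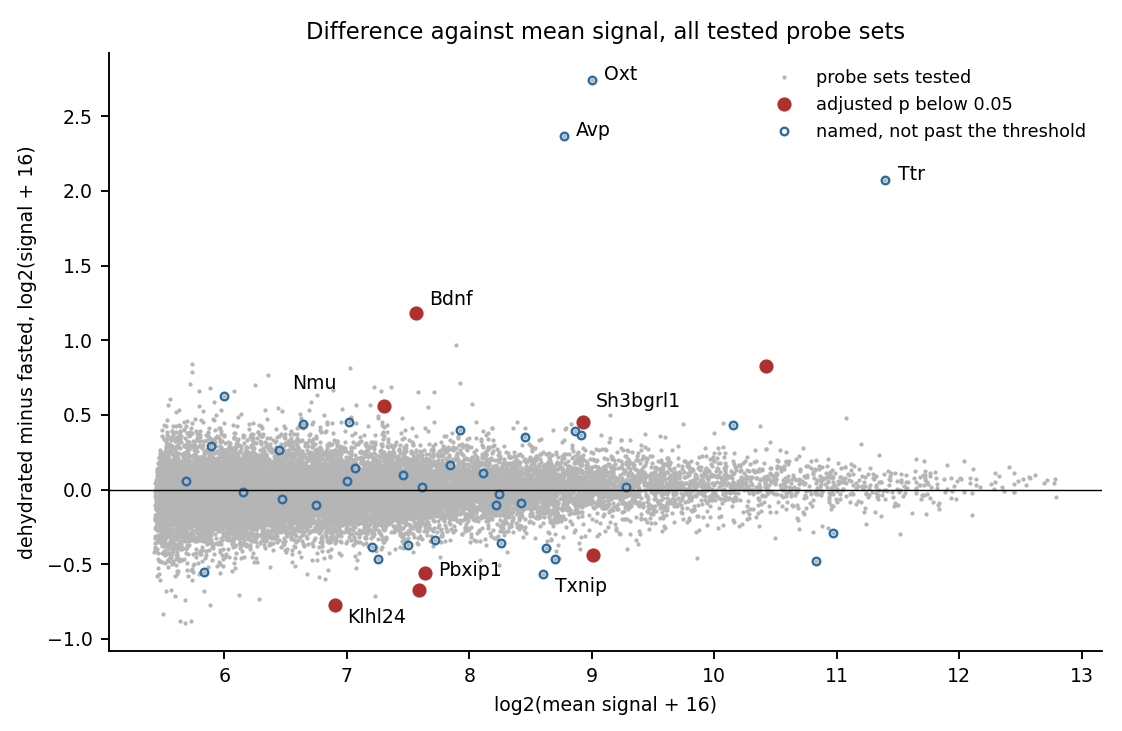
Difference between dehydrated and fasted arrays (vertical axis, log2(signal + 16)) against the mean signal of both groups (horizontal axis, log2) for each of the 18625 tested probe sets. Red points are the 8 that passed, open blue circles are named probe sets that did not pass, and Avp, Oxt and Ttr lie far above the cloud without passing.

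Bdnf encodes brain-derived neurotrophic factor, a secreted protein made by active neurons that acts on the receptor TrkB. Its signals were 234, 238, 246 and 270.2 in the dehydrated pools and 82.6, 105, 121, 86.8 and 106 in the fasted pools. Each dehydrated pool lay above each fasted pool by a wide gap, while the controls, at 84.8 to 122, overlapped the fasted range. The means were 247.2 ± 16.2 (SD, n = 4) and 100.4 ± 15.7 (SD, n = 5), a 2.28-fold difference (log2 1.19, SE 0.10, 95% interval 0.97 to 1.40, adjusted p = 2.37e-05). Bdnf passed with each of the 9 arrays left out in turn, at 1.13 to 1.25. A dimmer probe set for Bdnf, at means of 37.3 fasted and 31.0 dehydrated, had a difference of -0.18, short of the threshold (adjusted p = 0.699), and the average of both probe sets did not pass either (log2 0.50, adjusted p = 0.113, the highest over its 23 alternatives). Which Bdnf transcripts each probe set reads was not examined here.

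Nmu encodes neuromedin U, a peptide that curbs feeding and drives stress responses. Its signals were 184, 171, 152 and 180 in the dehydrated pools against 105, 109, 107, 107 and 131 in the fasted pools. The groups did not overlap, although fasted array 5 lay well above the other fasted arrays, and the controls spanned 86.4 to 128. Nmu was 1.47-fold higher (log2 0.56, SE 0.09, adjusted p = 0.0399). This call is close to the threshold. It was lost with any of 7 of the 9 arrays left out. Over all 9 of these fits the adjusted p ran from 0.0210 to 0.136 and the difference from 0.53 to 0.61.

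Vgf, a secreted precursor that neurotrophins and neuronal activity induce, had 546, 505, 520.0 and 480 in the dehydrated pools and 378, 426, 387, 336 and 414 in the fasted pools. The groups did not overlap, and the controls at 276 to 394 reached below the fasted range. The difference was 0.39 (SE 0.08) and did not pass (adjusted p = 0.153). Dusp6, the phosphatase that switches off ERK and is itself induced by ERK signalling, had 137, 130.0, 148 and 120 against 97.8, 94.4, 94.6, 89.8 and 89.0. Again no dehydrated pool fell into the fasted range (log2 0.45, adjusted p = 0.138). Of its other probe sets, 1 differed by 0.49 and 1 by -0.12, both without passing (adjusted p = 0.285 and 0.751). Prlh, the precursor of prolactin-releasing peptide, which hindbrain noradrenaline neurons make, had dim signals of 53.3 to 68.9 in dehydrated and 26.5 to 42.2 in fasted pools (log2 0.63, SE 0.12, adjusted p = 0.129). The control pools for Prlh ran from 33.0 to 63.7 and reached into both ranges.

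The promoters of the secreted factors Bdnf, Nmu and Vgf are shown because these genes encode signals that neurons release and because cAMP response elements are a textbook feature of Bdnf and Vgf regulation. Each sequence runs 5' to 3' from 250 bases before to 50 after a start site in the RefSeq table of GRCr8. Capitals mark the element TGACGTCA or its core TGACG, searched on both strands, where each full element also holds the core. The Bdnf promoter lies at chr3:116637608-116637907 on the plus strand and is the only one of its 6 in the table with a match. The Nmu promoter lies at chr14:32198693-32198992 on the plus strand. The Vgf promoter lies at chr12:25276971-25277270 on the minus strand.
Bdnf: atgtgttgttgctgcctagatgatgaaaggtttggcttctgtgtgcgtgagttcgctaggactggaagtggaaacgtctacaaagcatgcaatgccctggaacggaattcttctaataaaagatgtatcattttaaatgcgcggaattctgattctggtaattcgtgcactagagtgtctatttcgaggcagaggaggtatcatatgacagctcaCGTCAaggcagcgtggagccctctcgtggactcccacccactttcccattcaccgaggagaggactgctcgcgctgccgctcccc
Nmu: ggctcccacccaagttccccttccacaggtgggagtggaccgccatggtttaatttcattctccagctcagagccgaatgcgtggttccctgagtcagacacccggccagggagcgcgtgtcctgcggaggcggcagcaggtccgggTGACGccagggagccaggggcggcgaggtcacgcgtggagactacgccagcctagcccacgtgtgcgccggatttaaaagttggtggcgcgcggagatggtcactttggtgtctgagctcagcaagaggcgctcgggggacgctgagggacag
Vgf: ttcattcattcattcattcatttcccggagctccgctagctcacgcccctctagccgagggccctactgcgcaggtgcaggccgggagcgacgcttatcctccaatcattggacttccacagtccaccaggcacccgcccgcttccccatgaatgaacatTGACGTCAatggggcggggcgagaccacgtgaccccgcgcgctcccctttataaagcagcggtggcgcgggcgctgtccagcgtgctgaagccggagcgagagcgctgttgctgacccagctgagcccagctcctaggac
The core begins 35 bases before the Bdnf start and 103 before the Nmu start, and the full element begins 90 before the Vgf start. Among all 33469 promoters of the table, each counted singly, 21.2% held the core and 1.83% the full element. Of the 41 named genes, 35 had a promoter in the table, of which 14 held the core and 3 the full element in any of their promoters. Genes and single promoters are unlike units, so these counts and shares cannot be compared directly. The core was also in promoters of genes that were lower in dehydrated pools, among them Klhl24 (its probe set that passed), Nbl1 and Dbh. Beside Vgf, the full element was in the promoters of Cartpt (log2 -0.29) and Th (log2 -0.03). Signals at these promoters were not measured, and a match describes letters only.

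Klhl24 encodes a kelch-like adaptor of a ubiquitin ligase. It was lower in the dehydrated pools, at 76.8, 78.1, 71.2 and 62.9 against 128, 118, 129, 154 and 146 in the fasted pools. The groups were far apart, and here the controls, at 70.1 to 84.99, lay with the dehydrated pools. The difference was -0.77 (SE 0.10, 1.71-fold lower, adjusted p = 0.00473), and it passed with each array left out in turn, at -0.81 to -0.72. The call rests on 1 of 3 probe sets. The brightest Klhl24 probe set had 150.0 to 185 in dehydrated and 123 to 173 in fasted pools (log2 0.10, adjusted p = 0.788), and the dimmest differed by -0.02 (adjusted p = 0.964). Averaged over its probe sets Klhl24 was at -0.23, short of the threshold (adjusted p = 0.359), and without fasted array 4 and dehydrated array 3 the call was also lost.

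Pbxip1 had 136, 135, 154 and 157 in the dehydrated pools and 218, 215, 235, 235 and 206 in the fasted pools. The controls, at 181 to 224, overlapped the fasted range and lay above the dehydrated pools. The difference was -0.56 (SE 0.08, 1.47-fold lower, adjusted p = 0.0130). It was lost without fasted array 3 or without dehydrated array 1 or 2 (adjusted p up to 0.0885 over the 9 fits with an array left out). Sh3bgrl1, a small protein of the thioredoxin fold, had 542, 572, 603 and 476 in dehydrated and 390.3, 427, 404, 372 and 381 in fasted pools, with controls of 438 to 504 above the fasted range. It was 1.37-fold higher (log2 0.45, SE 0.08, adjusted p = 0.0467) and stayed past the threshold in 1 of the 9 fits with an array left out.

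The other 3 probe sets that passed have no gene in the platform table. The probe set 1375422_at had 1653, 2068, 1900 and 1340 in the dehydrated and 869 to 1105 in the fasted pools, with a wide control range of 730.1 to 1525 (log2 0.83, SE 0.11, adjusted p = 0.00597). It passed with each array left out in turn and was lost in 5 of 13 other alternatives, namely plain eBayes, all 13 arrays in 1 model, the replicate block, the Gapdh ratio as a covariate, and without dehydrated arrays 1 and 2. The probe set 1381262_at had 138, 141, 105 and 144 against 188 to 281 (log2 -0.67, adjusted p = 0.0462), and 1371237_a_at had 399 to 453 against 526.2 to 648 (log2 -0.44, adjusted p = 0.0467). For both, the groups did not overlap, and the calls were lost in 6 and in 8 of the 9 fits with an array left out.

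**Figure D2:**
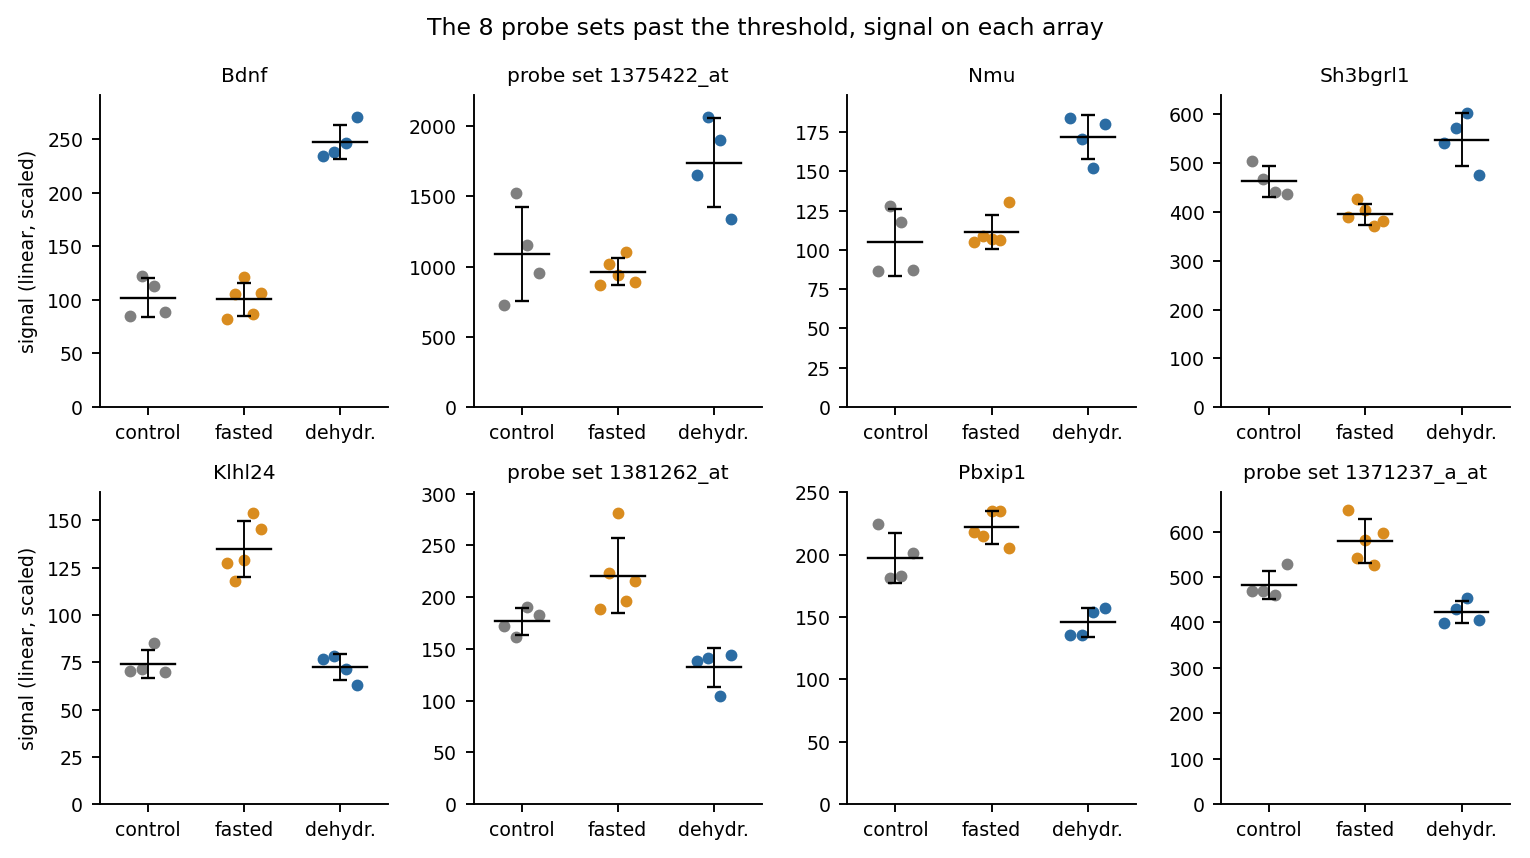
Signal on each array (points, linear scale from 0) of the 8 probe sets that passed, in the 4 control, 5 fasted and 4 dehydrated pools, with the group mean and SD (black). In Bdnf, Nmu and 1375422_at the dehydrated pools stood above the means of the other groups, in Klhl24 the fasted pools stood above the others, and in Pbxip1 the dehydrated pools stood below.

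Below the threshold, the genes with the smallest p on the lower side were led by Txnip, the thioredoxin-binding protein whose transcription follows glucose, which had 336, 260, 248 and 346 in dehydrated and 364, 443, 489, 456 and 479 in fasted pools. The groups did not overlap, and the controls at 306 to 431 spanned the space between them (log2 -0.57, SE 0.11, adjusted p = 0.118). Pdk4, the kinase that shuts pyruvate out of the mitochondrial oxidation of glucose, had 255, 313, 366 and 405 against 429 to 521 (log2 -0.47, SE 0.11, adjusted p = 0.257). Its 4 control signals, 406 to 427, lay just below the fasted pools. A second Pdk4 probe set differed by -0.45 (adjusted p = 0.413). Gstp1, a glutathione transferase, had 1332 to 1719 against 1818 to 2463 (log2 -0.48, adjusted p = 0.153). The complement component C3 had 136 to 145 against 176 to 198, with controls of 190 to 209 near the fasted pools (log2 -0.37, adjusted p = 0.153).

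The rest of these lower genes included Nbl1, a secreted antagonist of bone morphogenetic proteins (log2 -0.39, adjusted p = 0.153), and Sh3glb1, an endophilin that acts in autophagy (log2 -0.46, adjusted p = 0.179). The lipid genes Slc27a3, of the fatty acid transport protein family, and Cidea, a lipid droplet protein, differed by -0.55 and -0.38 (adjusted p = 0.240 and 0.244). Fam3a differed by -0.34 (adjusted p = 0.244). On the higher side, beside Prlh, Dusp6 and Vgf, were Agpat5, an acyltransferase of phospholipid synthesis, at 235 to 288 against 173 to 205 (log2 0.40, adjusted p = 0.179), and Fbxo33, a substrate receptor of a ubiquitin ligase, at 0.35 (adjusted p = 0.244). Riok1, a kinase of ribosome maturation, and Ngb, the neuronal globin, differed by 0.44 and 0.37 (adjusted p = 0.257 and 0.260). Other tested probe sets differed by 0.11 for Sh3glb1, -0.11 for Agpat5, -0.08 and 0.12 for Fbxo33 and 0.05 for Ngb (adjusted p from 0.716 to 0.936). None of these 16 genes passed. In each of the 16 the arrays of the groups did not overlap, against 3.22% of all probe sets, but they were chosen by their small p, which favours such separation.

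**Figure D3:**
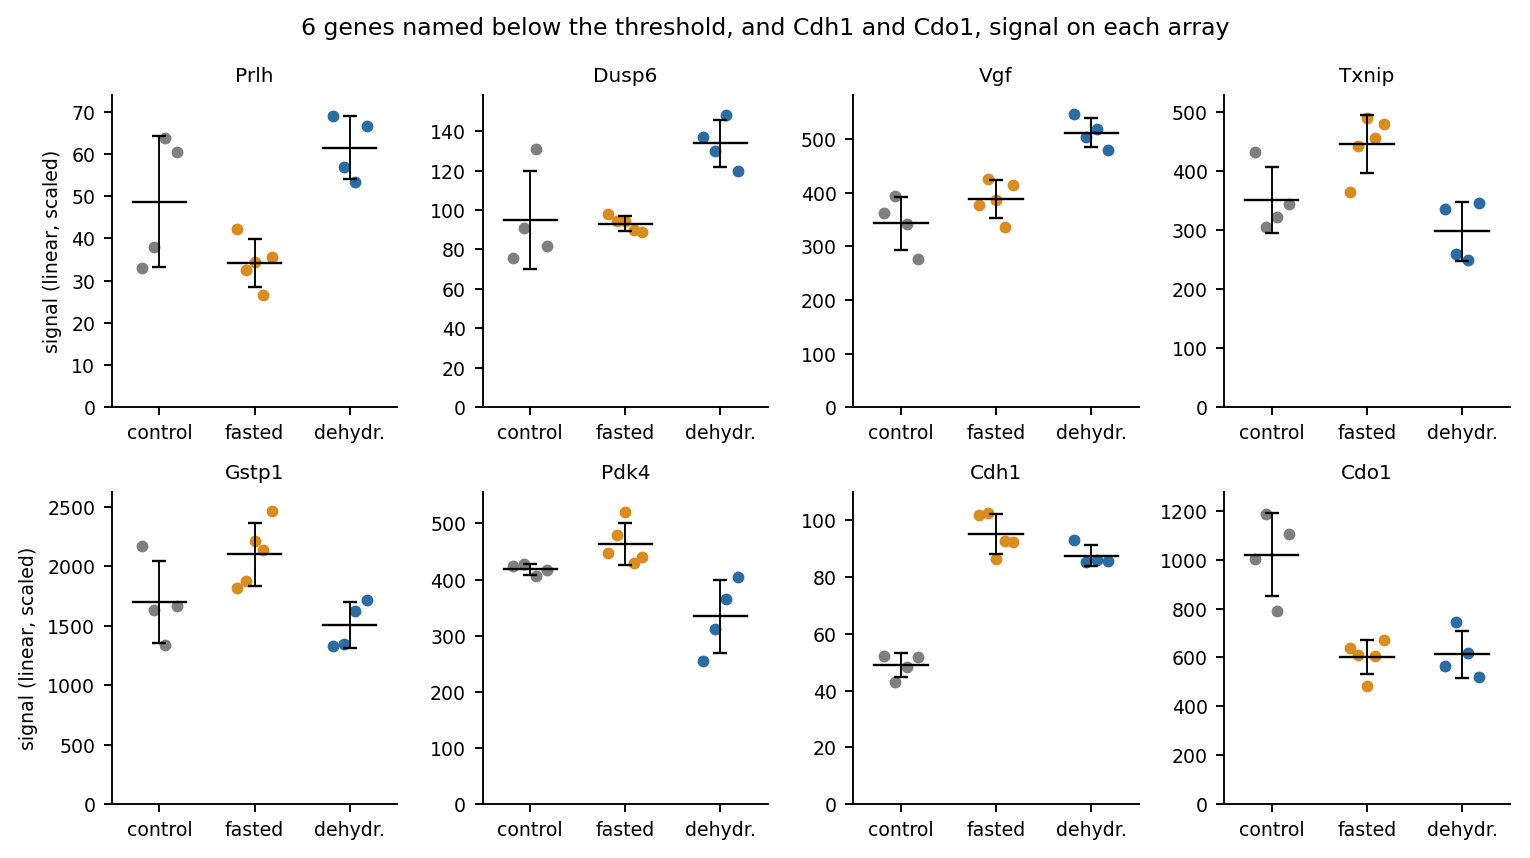
Signal on each array (points, linear scale from 0) in the 4 control, 5 fasted and 4 dehydrated pools, with the group mean and SD (black), for 6 genes that did not pass and for Cdh1 and Cdo1. In the first 6 the dehydrated and fasted pools do not overlap, and in Cdh1 and Cdo1 they overlap while the control pools lie apart from both.

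Genes of secreted peptides and of the proteins of their granules had more positive than negative differences. Of 32 tested genes, 21 had a positive difference and the median was 0.10, against -0.0088 over all tested probe sets. Nmu was the only member past the threshold. An unadjusted p below 0.05 was reached by 10 members on the higher side and 2 on the lower, or 37.5% against 10.2% of all probe sets. The mean over the list, on a log2 scale centred on the 9 arrays, was 0.41, 0.13, 0.03 and -0.01 in the dehydrated pools and -0.23 to -0.04 in the fasted pools. It was highest on the arrays with the most Avp and Oxt, which are themselves among the 32 genes averaged. The mean without them was not computed. Here and in the lists that follow, members below the threshold were named after their values were seen. The lists themselves were chosen with earlier results of these data known, so their shares against all probe sets are descriptions only. Pdyn, the dynorphin precursor, had 210.3, 158, 146 and 89.1 in dehydrated and 56.6 to 117 in fasted pools, so that dehydrated array 4 lay inside the fasted range (log2 0.81, SE 0.21, adjusted p = 0.285). Nppc, the C-type natriuretic peptide, had 82.0 to 113 against 63.9 to 83.4 (log2 0.33, adjusted p = 0.342). The granule proteins Scg2 and Scg3 and the processing enzyme Cpe differed by 0.23, 0.20 and 0.21, and cholecystokinin (Cck) by 0.32, with adjusted p from 0.394 to 0.450. On the lower side were neurotensin (Nts, log2 -0.27) and Pcsk1n, an inhibitor of prohormone convertase (log2 -0.19), with adjusted p of 0.431 and 0.463. Cartpt, the abundant anorexigenic peptide of this region, had 1369 to 2017 against 1716 to 2646 (log2 -0.29, adjusted p = 0.495).

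Avp and Oxt, the vasopressin and oxytocin precursors, are made mainly by magnocellular neurons of the hypothalamus. Avp had 1287, 1299, 159 and 245 in the dehydrated pools and 172, 117, 64.03, 47.3 and 72.9 in the fasted pools. Dehydrated arrays 1 and 2 were far above all others, and array 3 lay inside the fasted range. Oxt was also highest on dehydrated arrays 1 and 2, with 1864, 1474, 142 and 196 against 124, 106, 39.0, 35.6 and 64.6, and control array 1 at 214 above dehydrated arrays 3 and 4. The differences of 2.37 (SE 0.73, 95% interval 0.65 to 4.09) and 2.74 (SE 0.87, 95% interval 0.70 to 4.78) did not pass (adjusted p = 0.398 and 0.407). Without dehydrated arrays 1 and 2 they were 1.06 and 1.14 (adjusted p = 0.909 for each). With the Gapdh ratio as a covariate they were 1.39 and 1.56 (adjusted p = 0.998 for each), and with the choroid plexus marker mean 2.51 and 2.86 (adjusted p = 0.556 and 0.574). Over all their alternatives the adjusted p ran from 0.275 to 0.998.

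**Figure D4:**
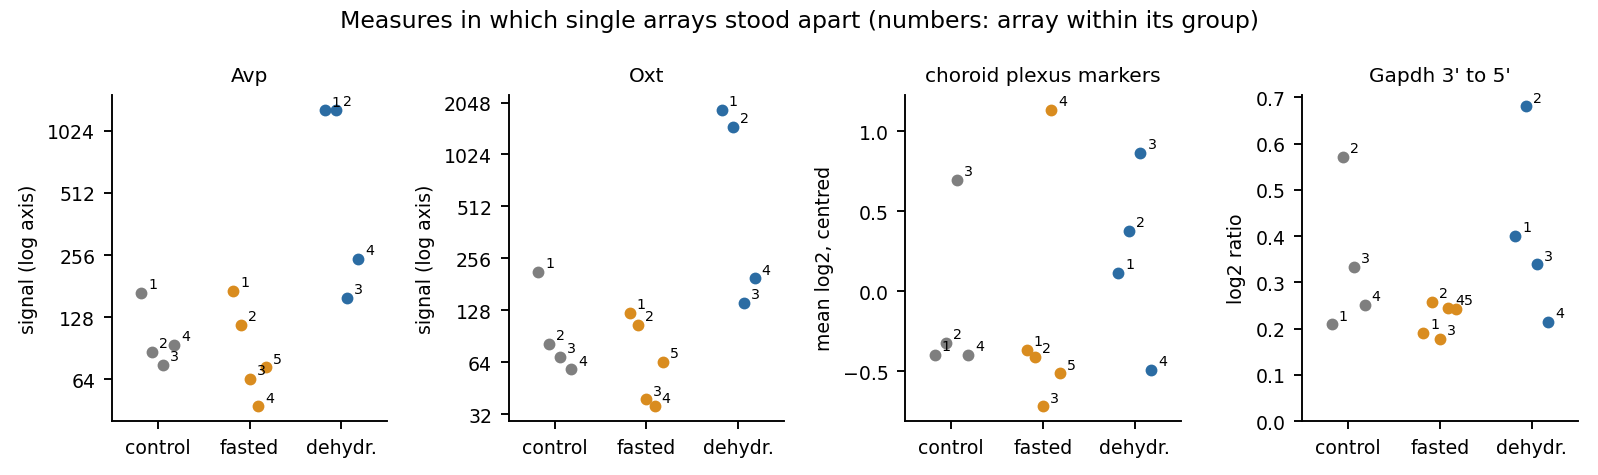
Signals of Avp and Oxt (log axes), the mean of 12 choroid plexus markers (log2, centred on the 9 arrays) and the Gapdh ratio (log2, 3' over 5' probes), for each control, fasted and dehydrated array, numbered within its group. Dehydrated arrays 1 and 2 stand apart in Avp and Oxt, fasted array 4, dehydrated array 3 and control array 3 are highest in choroid plexus markers, and dehydrated array 2 is highest in the Gapdh ratio.

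Genes of cholesterol synthesis and uptake had a positive difference in 17 of 19 tested members, with a median of 0.18. None passed, and 5 had an unadjusted p below 0.05, each on the higher side, which is 26.3% against 10.2% of all probe sets. Idi1, the isomerase of isoprenoid synthesis, had 205, 189, 182 and 183 against 135 to 168, with no overlap and with controls of 188 to 219 (log2 0.31, SE 0.09, adjusted p = 0.285). The squalene enzyme Sqle differed by 0.29, the sterol oxidase Msmo1 by 0.27, and Fdps and the sterol sensor Insig1 by 0.19 and 0.21 (adjusted p from 0.431 to 0.461). Dehydrated array 1 had a mean of 0.28 over the list, and the other dehydrated arrays lay between -0.004 and 0.04, near fasted arrays 1 and 2 at 0.03 and 0.01. Astrocyte markers had means of 0.30, -0.09, 0.09 and -0.06 on the dehydrated arrays and 0.14, -0.01, -0.19, 0.004 and -0.19 on the fasted arrays, where cholesterol genes had 0.03, 0.01, -0.18, -0.04 and -0.16. Oligodendrocyte markers were also highest on dehydrated array 1, at 0.43. The part of these cell markers in the cholesterol differences was not tested. Fatty acid synthesis and lipid storage genes had a median of 0.004 over 16 members.

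Interferon-induced and antigen-presenting genes had a positive difference in 20 of 27 tested members, with a median of 0.14. None passed. An unadjusted p below 0.05 was reached by 7 members, all 7 on the higher side (25.9% against 10.2%), among them the interferon regulators Irf7 (log2 0.50) and Irf9 (log2 0.37) with adjusted p of 0.285 each. The ubiquitin-like modifier Isg15 had 246, 124, 271 and 243 in dehydrated and 104 to 160.3 in fasted pools, with controls of 138 to 216 (log2 0.65, SE 0.19, adjusted p = 0.318). Its protease Usp18 ranked the dehydrated pools alike, with 195, 106, 216 and 184 against 76.4 to 133 (log2 0.66, adjusted p = 0.302). Dehydrated array 2 thus lay inside the fasted range for both genes while the other dehydrated arrays lay above it. The mean over the list, centred as for the peptide genes, was 0.16, -0.14, 0.35 and 0.16 in the dehydrated pools. In the fasted pools it was -0.20, -0.0003, -0.16, -0.22 and 0.06, so dehydrated array 2 lay inside their range here too. The untreated controls alone ran from -0.19 to 0.21. All members were read on the same arrays, so the counts of members are not independent evidence of a difference.

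Genes of the fasting response and of fatty acid use had more negative than positive differences, while the 33 tested oxidative phosphorylation subunits had 20 positive and 13 negative (median 0.05). Of 20 tested FOXO and fasting-response genes, 15 had a negative difference with a median of -0.08, none passed, and 5 had an unadjusted p below 0.05, all 5 on the lower side (25.0% against 10.2%). Beside Txnip and Pdk4 these were the autophagy receptor Sqstm1, at 1078 to 1355 against 1355 to 1471 (log2 -0.24, adjusted p = 0.301), the stress sensor Sesn1 (log2 -0.26, adjusted p = 0.399) and Foxo4 itself (log2 -0.41, adjusted p = 0.416). Klhl24 also belongs to this list, where its brightest probe set (log2 0.10) counts as positive and not passing. Its probe set that passed (log2 -0.77) is not in these counts. Neither is a probe set of the list member Igfbp3 on the higher side, without overlap (log2 0.38, adjusted p = 0.285). Of 29 genes that burn fatty acids or make and use ketones, 24 had a negative difference with a median of -0.09, and none passed. The mean of this list was 0.07 in control, 0.05 in fasted and -0.06 in dehydrated pools. Its controls thus lay near the fasted pools, while those of the FOXO list lay near the dehydrated pools. An unadjusted p below 0.05 was reached by 6 on the lower side and by Acsl1 on the higher (24.1% against 10.2%). Ech1, a peroxisomal and mitochondrial enzyme of unsaturated fatty acids, had 1418, 1559, 1664 and 1737 against 1747 to 2191, with controls of 1678 to 1844 (log2 -0.29, SE 0.08, adjusted p = 0.285). Acadvl, the first enzyme of long-chain oxidation, and Cpt1a, which admits fatty acids to mitochondria, differed by -0.24 and -0.21 (adjusted p = 0.353 and 0.471). A dimmer Cpt1a probe set differed by -0.45 (adjusted p = 0.367). Control pools for Acadvl, at 352 to 414, lay above the dehydrated pools and overlapped the fasted ones.

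Glutathione and antioxidant enzymes had a negative difference in 16 of 21 tested members, with a median of -0.11 and no member past the threshold. Beside Gstp1, unadjusted p below 0.05 on the lower side was reached by Nqo1, a quinone reductase at 204 to 236 against 238 to 288 (log2 -0.31, adjusted p = 0.275), by Gss, glutathione synthetase, at 72.4 to 97.2 against 106 to 119 (log2 -0.38, adjusted p = 0.275), and by Gstm1 (log2 -0.23, adjusted p = 0.431). Thioredoxin (Txn1) lay on the other side at 0.19 (adjusted p = 0.378), and the 5 members make 23.8% of the list against 10.2% of all probe sets. Nqo1, Gss and Txn1 did not overlap between the groups, as did Gstp1, which makes 19.0% of the list against 3.22% of all probe sets.

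**Figure D5:**
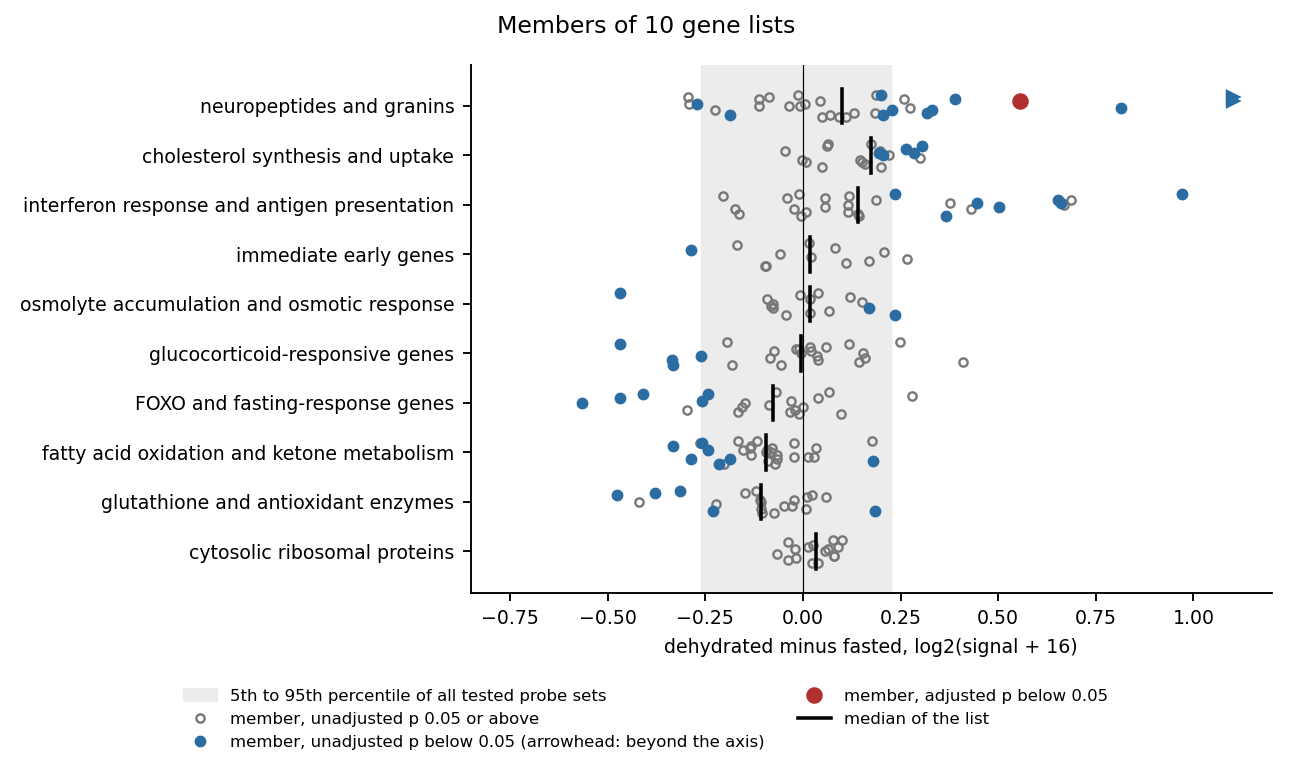
Difference between dehydrated and fasted pools (horizontal axis, log2(signal + 16)) of each tested member of 10 gene lists, with list medians (black bars) and the middle range of all tested probe sets (grey). With each gene read by its brightest probe set, Nmu is the only member past the threshold (red), and Avp and Oxt lie beyond the axis (arrowheads).

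In the lists tied to water balance, stress hormones and neuronal activation no member passed. The 15 tested genes of osmolyte accumulation and the osmotic response had a median of 0.02, and 3 had an unadjusted p below 0.05, 2 higher and 1 lower (20.0% against 10.2%). Slc6a6, the taurine transporter, had 219, 236, 227 and 222 in dehydrated and 185 to 210.4 in fasted pools, a separation without overlap but of 0.17 in size (adjusted p = 0.466). Slc5a3, the inositol transporter, and the kinase Sgk1 differed by -0.09 and 0.02 (adjusted p = 0.871 and 0.982). The 19 tested genes of aquaporins and ion transport had a median of 0.04, with 2 higher and 3 lower at an unadjusted p below 0.05 (26.3% against 10.2%). The astrocyte water channel Aqp4 had 1751, 1062, 1203 and 1155 against 752 to 1283, so the groups overlapped (log2 0.43, SE 0.17, adjusted p = 0.445). Of 10 tested genes of the renin-angiotensin system, 9 had a negative difference with a median of -0.05, and 2 reached an unadjusted p below 0.05, both lower (20.0% against 10.2%). They were the protease Ctsd (log2 -0.22, adjusted p = 0.380) and Mas1, a receptor of angiotensin fragments (log2 -0.27, adjusted p = 0.449). The 23 glucocorticoid-responsive genes had a median of -0.01, with 4 at an unadjusted p below 0.05, all 4 lower (17.4% against 10.2%), and Fkbp5, a sensitive target of that hormone, differed by 0.06 (adjusted p = 0.872). A dimmer Fkbp5 probe set differed by 0.38, also without passing (adjusted p = 0.431). Of 12 tested immediate early genes, the median was 0.02 and 1 reached an unadjusted p below 0.05, lower (8.33% against 10.2%). Fos had 69.5, 107, 67.2 and 73.0 against 51.5 to 80.1 (log2 0.27, adjusted p = 0.531), and Egr1 was at -0.29 (adjusted p = 0.414). The 16 ribosomal protein genes had a median of 0.03.

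No gene of the receptors by which the organ reads the blood passed. Of 47 receptor-list genes, 25 were tested and their median was -0.04. Calcr and its partner Ramp3 differed by 0.15 (95% interval -0.07 to 0.36) and -0.06 (-0.29 to 0.17). Casr, the calcium-sensing receptor, differed by 0.11 (-0.09 to 0.31), Glp1r by 0.06 (-0.28 to 0.40), Agtr1a, the angiotensin receptor, by -0.02 (-0.25 to 0.22) and Adipor1 by -0.10 (-0.25 to 0.05). The vasopressin receptor gene Avpr1a was dim, with 39.8, 52.7, 52.0 and 52.5 in dehydrated and 31.5 to 43.1 in fasted pools (log2 0.29, adjusted p = 0.438). Th, the rate-limiting enzyme of catecholamine synthesis, differed by -0.03, and Dbh, which converts dopamine to noradrenaline, had 229, 222, 241 and 320.2 against 297 to 352 (log2 -0.36, SE 0.10, adjusted p = 0.285). Without dehydrated array 4, whose signal lay inside the fasted range, Dbh passed (adjusted p = 0.0382, with 0.0382 to 0.998 over its 23 alternatives).

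Some genes had like signals in both states although the control pools lay elsewhere. Cdh1, the epithelial adhesion protein E-cadherin, had 93.2, 85.4, 86.0 and 85.5 in dehydrated and 102, 103, 86.2, 92.6 and 92.3 in fasted pools, against 43.1 to 52.3 in the controls. The difference between the states was -0.10 (95% interval -0.29 to 0.09, adjusted p = 0.744). Cdo1, which commits cysteine to taurine synthesis, had 565, 746, 616 and 521 against 637, 611, 484, 605 and 673, and 789.9 to 1185 in the controls. The difference was 0.02 (95% interval -0.20 to 0.24, adjusted p = 0.971). The intervals include 0 and do not show that the states are equal at these genes.

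Cell type markers gave no call in any of their 14 lists. Summed neuron markers were 9906 to 11020 in fasted and 10320 to 11640 in dehydrated pools, and astrocyte markers 21120 to 27210 and 23120 to 27890. The vesicular glutamate transporter Slc17a6, a marker of excitatory neurons, had 865, 740, 723 and 687 in dehydrated and 536 to 668 in fasted pools, without overlap (log2 0.27, SE 0.08, adjusted p = 0.304), while the 13 general neuron markers had a median of 0.06. Mag, a myelin protein, differed by -0.36 (adjusted p = 0.302) and the microglial protease Ctss by 0.27 (adjusted p = 0.265). Both were the extremes of their lists. The 8 tested oligodendrocyte markers had a median of -0.06, with 2 positive and 6 negative. The 13 tested microglia and macrophage markers had a median of 0.003, with 8 positive and 5 negative. Choroid plexus markers summed to 1740 to 12260 in fasted and 1990 to 13060 in dehydrated pools. Their brightest gene, Ttr (transthyretin), had 2715, 4206, 7953 and 394 in dehydrated and 572, 440, 152, 6343 and 230.2 in fasted pools, and its difference of 2.07 did not pass (adjusted p = 0.650). With the choroid plexus marker mean as a covariate 5 of the 8 probe sets passed, namely Bdnf, Nmu, 1375422_at, Klhl24 and Pbxip1. With the Gapdh ratio as a covariate 2 passed, Bdnf and Klhl24.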

How the data were processed

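Total RNA from the area postrema was measured on Affymetrix arrays. The authors deposited a table of linear intensity values, 1 for each array and probe set, produced by GCOS 1.2 according to the submitters' processing notes, with settings not given in the sources read. The mean after trimming 2% at each end was 100 on every array, so the values were used as deposited. Signals were transformed as log2(signal + 16), which shrinks ratios at low signal. Of 31099 probe sets, 57 Affymetrix controls were left out, and a filter at the 40th percentile of mean signal (27.1) kept 18625. The platform table, which can be old, gave 20826 probe sets exactly 1 gene symbol, 436 several and 9780 none. Array positions of the probes were not used here.

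The 4 dehydrated and 5 fasted arrays, grouped by title, were fitted with limma 3.58.1 in R 4.3.3 (lmFit, eBayes with trend and robust, two-sided), with Benjamini-Hochberg adjustment over the 18625 probe sets and a threshold of 0.05. The fit was checked on simulated arrays with shifts larger than the differences of all probe sets that passed except Bdnf. Detection of smaller differences was not checked. A gene was read by its brightest probe set. Named were all probe sets past the threshold, the 10 genes with the smallest p on a side where fewer passed, those that passed included, up to 3 passing members of each list, and 22 genes always given. The 26 function and 14 cell type lists, the members and the always given genes were chosen with earlier results of these data known, so lists are described by counts and medians and not tested. The number of arrays limits the precision.

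Same-numbered arrays of the groups did not deviate together (correlations -0.001, 0.05, -0.04 and -0.17), so the numbers were not taken as pairs. The fit was repeated after quantile normalization, with array weights, with plain eBayes (neither trend nor robust), with pseudocounts of 64 and 1, with the filter removed or raised to the 60th percentile, with the control arrays added (13 arrays), with a replicate block, with 1 covariate (the Gapdh ratio or the choroid plexus marker mean), on values averaged per gene, and without each array in turn. Another 2, without dehydrated arrays 1 and 2 and without fasted array 4 and dehydrated array 3, were chosen after seeing the data. Promoters came from the RefSeq table of GRCr8. Annotation, the permutation test and plots used Python 3.11.15 with matplotlib 3.10.9, scipy 1.17.1, pandas 2.3.3 and numpy 2.4.6.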

Additional observations from a re-analysis of the deposited data

Results flagged for a closer look

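Among 94 groups of 4 or 5 arrays examined for a single array far from the rest, 8 held such an array, where chance gives about 1 in 20. Nmu was at 130.6 on fasted array 5, against 104.7 to 108.9 on the other fasted arrays, on the side of the dehydrated pools. The unnamed probe set 1381262_at was at 104.6 on dehydrated array 3, against 138.2 to 144.2, farther from the fasted pools than the others. Dehydrated array 1 stood apart in 4 genes. It had 42.08 for Slc27a3 (others 25.25 to 27.13), 153.1 for Fam3a (others 173.9 to 176.5), 39.79 for Avpr1a (others 51.96 to 52.66) and 93.18 for Cdh1 (others 85.44 to 86.02). Fos was at 107.2 on dehydrated array 2, against 67.18 to 72.95 on the other dehydrated arrays, and this array also had the highest Gapdh ratio, 0.68. The choroid plexus marker mean, on the centred log2 scale, was 1.134 on fasted array 4, against -0.7168 to -0.365 on the other fasted arrays.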

How the results depend on the processing

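The count of 8 stayed between 6 and 9 with quantile normalization, other pseudocounts, the stricter filter, array weights and all 13 arrays in 1 model. It was 4 with no filter, 2 with eBayes without trend and robust, 2 with the Gapdh ratio and 5 with the choroid plexus marker mean as a covariate, 2 of 10404 genes with probe sets averaged, 4 without dehydrated arrays 1 and 2, and 2 without fasted array 4 and dehydrated array 3. The cause was not tested. With 1 array left out it ran from 3 to 14, at 4, 3 and 5 without fasted arrays 2, 3 and 5, at 3, 4 and 5 without dehydrated arrays 1, 2 and 3, and at 14 without dehydrated array 4, of which 6 were among the 8. With the replicate block 1 probe set passed, Bdnf, and 1 of 4 dehydrated arrays matched its own number best. The Gapdh difference reached an exact permutation p of 0.0357 without dehydrated array 4, the smallest possible with that array left out. With an array left out the p ranged up to 0.25. Over named probe sets and alternatives, 914 values kept direction and side, 75 lost the threshold, 4 gained it and 34 changed sign, each of the latter from a difference that did not pass. Only the 8 probe sets that passed could lose the threshold, and the 914 include values that passed in neither fit. Bdnf passed in 22, Klhl24 in 20, Pbxip1 in 15, Nmu in 9 and Sh3bgrl1 in 7 of 23 alternatives. The unnamed 1375422_at, 1381262_at and 1371237_a_at passed in 17, 9 and 7 of 22. With an array left out, sign changes gave ranges of -0.070 to 0.031 for Agtr1a, -0.078 to 0.091 for Cdo1, -0.014 to 0.097 for Fkbp5, -0.026 to 0.17 for Glp1r, -0.11 to 0.026 for Ramp3, -0.064 to 0.15 for Sgk1, -0.20 to 0.0058 for Slc5a3 and -0.10 to 0.020 for Th. With the Gapdh ratio Ramp3 was 0.11, Th 0.079, Fkbp5 -0.083 and Cdo1 -0.19. With the choroid plexus mean Th was 0.043, Sgk1 -0.092 and Cdo1 -0.021. With the replicate block Th was 0.0022 and Sgk1 -0.041. With quantile normalization Agtr1a was 0.0031 and Cdo1 -0.0093. Without dehydrated arrays 1 and 2, Ramp3 was 0.028, Glp1r -0.0078, Th 0.035, Fkbp5 -0.052 and Cdo1 -0.077. Averaged over probe sets, Klhl24 was -0.23 where its brightest probe set alone was 0.10. List medians kept their sign in every alternative run for neuropeptides (0.05 to 0.13), cholesterol (0.09 to 0.22), interferon (0.11 to 0.25), FOXO (-0.13 to -0.06), fatty acid oxidation (-0.17 to -0.05) and glutathione genes (-0.16 to -0.05).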
